A study of Mus musculus with 4 samples.

Results

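The genes described here build, break down and read cyclic AMP (cAMP) in mouse Leydig cells, and their RNA was compared between cells given Trps1 siRNA and cells given Negative siRNA. They were taken by gene name: protein-coding genes of the adenylyl cyclase (Adcy), phosphodiesterase (Pde) and A-kinase anchor protein (Akap) families, the subunits of protein kinase A (PKA), the Epac exchange factors Rapgef3 and Rapgef4, and the CREB-family factors with their coactivators. The rule gave 64 of the 55812 features in the count table. Of these, 45 had enough reads to be tested, among 14701 tested genes.

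Leydig cells lie between the tubules of the testis and make testosterone. Luteinising hormone binds its receptor on these cells, the receptor acts through the G protein Gs, and Gs switches on adenylyl cyclases that turn ATP into cAMP. cAMP then releases the catalytic subunits of PKA from their regulatory subunits and also activates Epac proteins, while phosphodiesterases break it down and anchor proteins hold PKA at particular places in the cell. PKA phosphorylates CREB-family factors, which bind the cAMP response element in DNA, and this pathway is the classical driver of steroid production in Leydig cells.

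Both groups were primary Leydig cells from mouse, of an age labelled as 6 months, and 2 samples received Negative siRNA while 2 received Trps1 siRNA. No label used here gives the strain, the siRNA dose, the time after transfection or any hormone in the medium. Nor do the labels say whether a group's samples were separate cultures or animals, so the p-values reflect sample-to-sample spread that may be only technical. The libraries held 17844125 to 25852898 counted reads. Trps1, the targeted gene, had 38.1 and 42.2 CPM in Negative siRNA samples 1 and 2 and 23.5 and 30.1 CPM in Trps1 siRNA samples 1 and 2. CPM is the usual depth-scaled unit, a share of each library's counted reads. The fall in Trps1 on the log2 scale was -0.58 ± 0.10 (standard error, edgeR adjusted p = 0.000351). All 11 listed Leydig markers were tested, and 7 of them rose, each also counted in the steroidogenic list described below. The others, Star, Insl3, Prlr and Vcam1, did not pass the test. The 18 macrophage markers, also all tested, summed to 3397 and 3331 CPM in the Negative siRNA samples and to 2885 and 2281 CPM in the Trps1 siRNA samples, so macrophage RNA was present and lower with Trps1 siRNA. Of 9 endothelial markers tested Eng fell, and of 3 Sertoli markers tested Gata1 rose, with log2 fold changes of -0.24 and 0.41. Sox9 (0.24) and Cldn11 (-0.17) did not pass the test. The other 4 Sertoli markers listed had too few reads to be tested. Of 3 germ cell markers tested Kit and Zbtb16 rose, with log2 fold changes of 0.38 and 0.32. The other 6 germ cell markers listed, Ddx4 and Sycp3 among them, had too few reads to be tested. Across all tested genes 11.2% had an edgeR adjusted p under 0.05. In such bulk samples, fewer cells of a type and less RNA per cell cannot be told apart.

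With Trps1 siRNA, 4 of the 45 tested genes rose and 2 fell (edgeR's quasi-likelihood test, Benjamini-Hochberg adjusted p under 0.05 over all tested genes). Rapgef4, Pde5a, Prkar2a and Akap1 rose, Adcy7 and Pde7b fell, and 39 did not pass the test. The 6 calls are 13.3% of the tested genes of the pathway, near the 11.2% of all tested genes that were called. Across all tested genes 5.24% were called higher and 6.00% lower. In 27 of the 45 genes (60.0%) the 2 groups did not overlap, with Trps1 siRNA higher in 16 and lower in 11, against 52.2% of all tested genes. The median log2 fold change of the 45 genes was 0.05, against 0.002 for all tested genes. Rapgef4 changed most among the 4 that rose, by 1.58-fold, and the other 3 rose by less, Akap1 by 1.18-fold and Prkar2a by 1.19-fold.

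**Figure D1:**
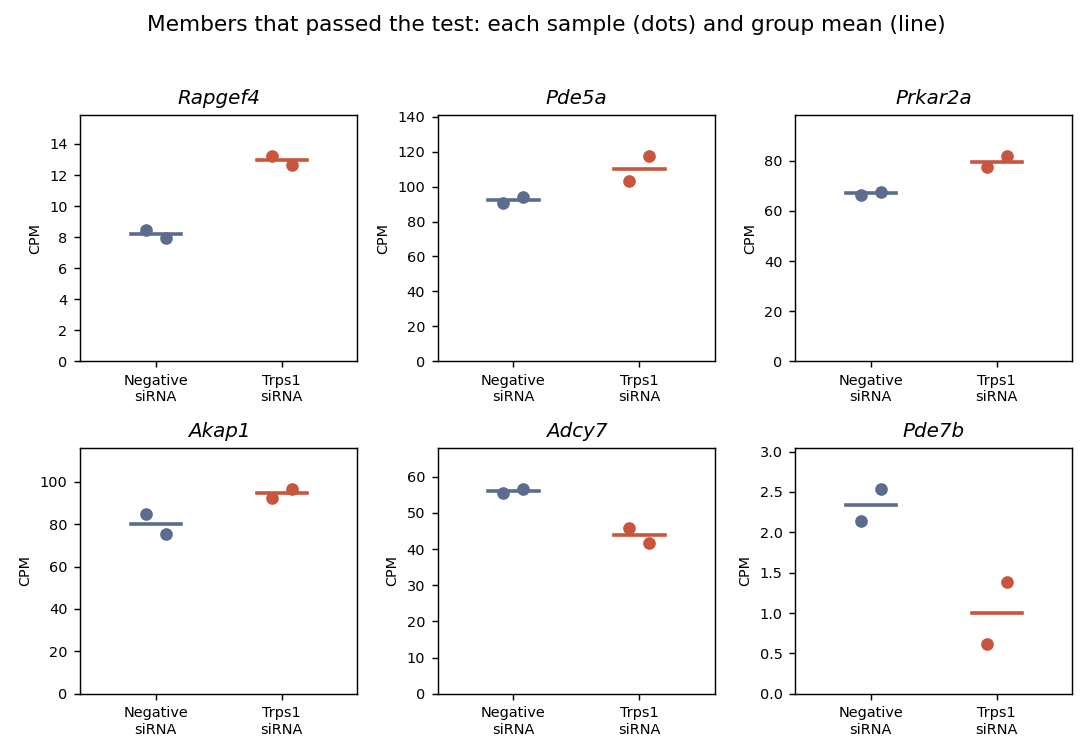
CPM (vertical axis, from 0) of the 6 genes of the pathway that passed the test, with 1 dot per sample and a line at the group mean of 2 samples. Rapgef4, Pde5a, Prkar2a and Akap1 were higher, and Adcy7 and Pde7b lower, in both Trps1 siRNA samples than in both Negative siRNA samples.

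Adenylyl cyclases make the cAMP. Of 10 genes in the family, 6 were tested. To compare levels between genes, CPM was divided by the length of the merged exons in kilobases (kb). On that scale Adcy9, a widely expressed membrane cyclase, and Adcy7, a cyclase known to be abundant in blood cells, led the family, at group means of 8.66 and 8.34 CPM per kb with Negative siRNA and 9.09 and 6.50 CPM per kb with Trps1 siRNA. Adcy6 and Adcy3 followed, at 3.89 and 3.02 CPM per kb with Negative siRNA. The level of Adcy5 was 0.548 and that of Adcy4 0.284 CPM per kb in the same group.

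Adcy7 was the cyclase that fell (ENSMUSG00000031659, chromosome 8, 88272403 to 88329962, plus strand, GRCm38). It had 55.6 and 56.7 CPM in Negative siRNA samples 1 and 2 and 45.9 and 41.7 CPM in Trps1 siRNA samples 1 and 2. The 2 groups did not overlap, and Trps1 siRNA sample 2 was the lowest of the 4. The log2 fold change was -0.36 ± 0.08 (standard error, edgeR adjusted p = 0.00213), or 77.9% of the control level. Without Trps1 siRNA sample 2 it was -0.29, and the call was lost by a small margin (edgeR adjusted p = 0.0541). The macrophage markers fell in 10 of 18 genes (55.6%, against 6.00% of all tested genes), and none rose. Their median log2 fold change over the 18 was -0.41. Those that fell were Aif1, C1qa, Adgre1, Tyrobp, Laptm5, Cd68, Fcer1g, Mrc1, Lyz2 and Fcgr3, from -1.18 for Aif1 to -0.30 for Fcgr3 on the log2 scale. Trps1 siRNA sample 2 also had their lowest sum, 2281 CPM, and the part of macrophage RNA in the fall of Adcy7 was not tested. Adcy7 made up 32.0% and 35.3% of the summed per-length level of all cyclases in controls, against 29.6% and 25.9% after Trps1 siRNA.

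The other cyclases did not pass the test. Adcy3 had 19.3 and 18.4 CPM in Negative siRNA samples 1 and 2 and 24.1 and 21.7 CPM in Trps1 siRNA samples 1 and 2, a log2 fold change of 0.28 ± 0.11 (standard error, edgeR adjusted p = 0.0985). Adcy6, a cyclase inhibited by calcium and by Gi proteins, had 26.9 and 25.9 CPM against 21.7 and 23.9 CPM, a log2 fold change of -0.21 ± 0.10 (standard error, edgeR adjusted p = 0.196). The groups of Adcy3 and of Adcy6 did not overlap, in opposite directions. Adcy9 had 48.9 and 41.1 CPM against 43.1 and 51.3 CPM, with overlapping groups and a log2 fold change of 0.08. Adcy5, at 3.24 to 4.93 CPM, and Adcy4, at 0.560 to 1.64 CPM, had log2 fold changes of 0.22 ± 0.22 and -0.89 ± 0.45 (standard errors), and the 10 to 33 reads per sample left Adcy4 with a wide error. Adcy3 shares exon bases with Cenpo, a gene on the opposite strand, and is uncertain where counting did not use strand. Adcy6 shares some with the annotated gene Gm29331, also on the opposite strand.

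Phosphodiesterases were the largest family, with 24 genes, and 15 of them were tested, with 1 called higher and 1 lower. They differ in substrate. Genes for enzymes specific to cAMP (Pde4a to Pde4d, Pde7a, Pde7b, Pde8a and Pde8b) were all tested. Their per-length levels summed to 22.0 and 21.2 CPM per kb in the Negative siRNA samples and to 24.0 and 24.3 CPM per kb in the Trps1 siRNA samples, and Pde8a made up most of that sum. Genes for enzymes that cleave both cAMP and cGMP (the Pde1 and Pde3 genes, Pde2a, Pde10a and Pde11a) summed to only 2.29 to 2.58 CPM per kb across the 4 samples, and none of the 5 tested passed the test. Pde6d, which encodes a prenyl-binding protein without catalytic activity, was close to Pde8a in level, at 17.4 CPM per kb with Negative siRNA and 15.5 CPM per kb with Trps1 siRNA, and did not pass the test (edgeR adjusted p = 0.212).

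Pde5a, the cGMP-specific enzyme that sildenafil inhibits, rose (ENSMUSG00000053965, chromosome 3, 122728947 to 122859374, plus strand). It had 90.7 and 93.9 CPM in Negative siRNA samples 1 and 2 and 103 and 118 CPM in Trps1 siRNA samples 1 and 2. Both Trps1 siRNA samples lay above both controls, but they differed from each other by more than the control samples did. The log2 fold change was 0.26 ± 0.06 (standard error, edgeR adjusted p = 0.00815). Without Trps1 siRNA sample 2 it was 0.16 (edgeR adjusted p = 0.262), and without Negative siRNA sample 1 it was 0.23 (edgeR adjusted p = 0.0734). Pde5a shares some exon bases with 4930447N08Rik, which lies on the opposite strand. The 7 listed markers of peritubular myoid and smooth muscle cells, which also express Pde5a, had sums of 149 and 155 CPM in the control samples, against 130 and 129 CPM after Trps1 siRNA. Of 5 such markers tested Mylk rose (log2 fold change 0.26) and Acta2 and Myl9 fell (both -0.69), and their part in the rise of Pde5a was not tested.

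Pde7b, a high-affinity cAMP phosphodiesterase, fell to 43.7% of its control level (ENSMUSG00000019990, chromosome 10, 20398004 to 20725078, minus strand). Its counts were low, with 43 and 65 reads in Negative siRNA samples 1 and 2 and 11 and 30 reads in Trps1 siRNA samples 1 and 2, or 2.14, 2.54, 0.616 and 1.38 CPM. The groups did not overlap, and Trps1 siRNA sample 1 was less than 50% of sample 2. The log2 fold change was -1.19 ± 0.36 (standard error, edgeR adjusted p = 0.0300). Without Trps1 siRNA sample 1 it was -0.77 (edgeR adjusted p = 0.238), without Trps1 siRNA sample 2 it was -1.92 (edgeR adjusted p = 0.0192), and without Negative siRNA sample 2 it was -1.06 (edgeR adjusted p = 0.144). Its close relative Pde7a had 7.46 and 8.20 CPM against 10.5 and 8.79 CPM, with a log2 fold change of 0.29 ± 0.15 (standard error) that did not pass the test.

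Pde8a and Pde8b encode high-affinity enzymes known to restrain steroid production. Pde8a was the most abundant gene per length among those for catalytic enzymes, at 17.0 CPM per kb with Negative siRNA and 19.0 CPM per kb with Trps1 siRNA. It had 70.5 and 66.7 CPM in Negative siRNA samples 1 and 2 and 76.4 and 77.3 CPM in Trps1 siRNA samples 1 and 2, a log2 fold change of 0.16 ± 0.07 (standard error, edgeR adjusted p = 0.117). Pde8b had 9.30 and 9.65 CPM against 11.7 and 13.1 CPM, a log2 fold change of 0.39 ± 0.14 (standard error, edgeR adjusted p = 0.0668). In both genes the Trps1 siRNA samples lay above the controls, and neither passed the test. Pde8b, like Pde7a and Pde3a, shares some exon bases with a gene on the opposite strand.

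The Pde4 genes, which encode the rolipram-sensitive enzymes, had low levels in these cells. Pde4a was at 1.06 CPM per kb with Negative siRNA, Pde4d at 0.430, Pde4b at 0.217 and Pde4c at 0.0883 CPM per kb. Their log2 fold changes were -0.11 ± 0.15, 0.22 ± 0.18, -0.48 ± 0.31 and 0.12 ± 0.58 (standard errors), and the 4 genes did not pass the test. Pde3b, an enzyme inhibited by cGMP, had 10.9 and 11.8 CPM in Negative siRNA samples 1 and 2 and 10.5 and 10.2 CPM in Trps1 siRNA samples 1 and 2. Pde10a was at 7.16 and 7.15 CPM against 6.11 and 6.44 CPM. The calmodulin-dependent enzymes Pde1a and Pde1b were at 1.09 to 2.30 CPM and Pde3a at 0.920 to 1.69 CPM, too few reads for a small difference to be seen.

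The 2 most abundant tested genes of the pathway per length encode PKA subunits. The catalytic subunit gene Prkaca led per length, at 134 CPM per kb with Negative siRNA and 126 CPM per kb with Trps1 siRNA. The regulatory subunit gene Prkar1a followed at 113 and 118 CPM per kb, in the same order. The others lay well below: Prkacb at 13.4, Prkar2a at 10.5, Prkar2b at 9.996 and Prkar1b at 2.82 CPM per kb with Negative siRNA. Prkaca made up 89.9% to 91.0% of the catalytic, and Prkar1a with Prkar1b 83.7% to 85.1% of the regulatory, per-length level in the 4 samples.

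**Figure D2:**
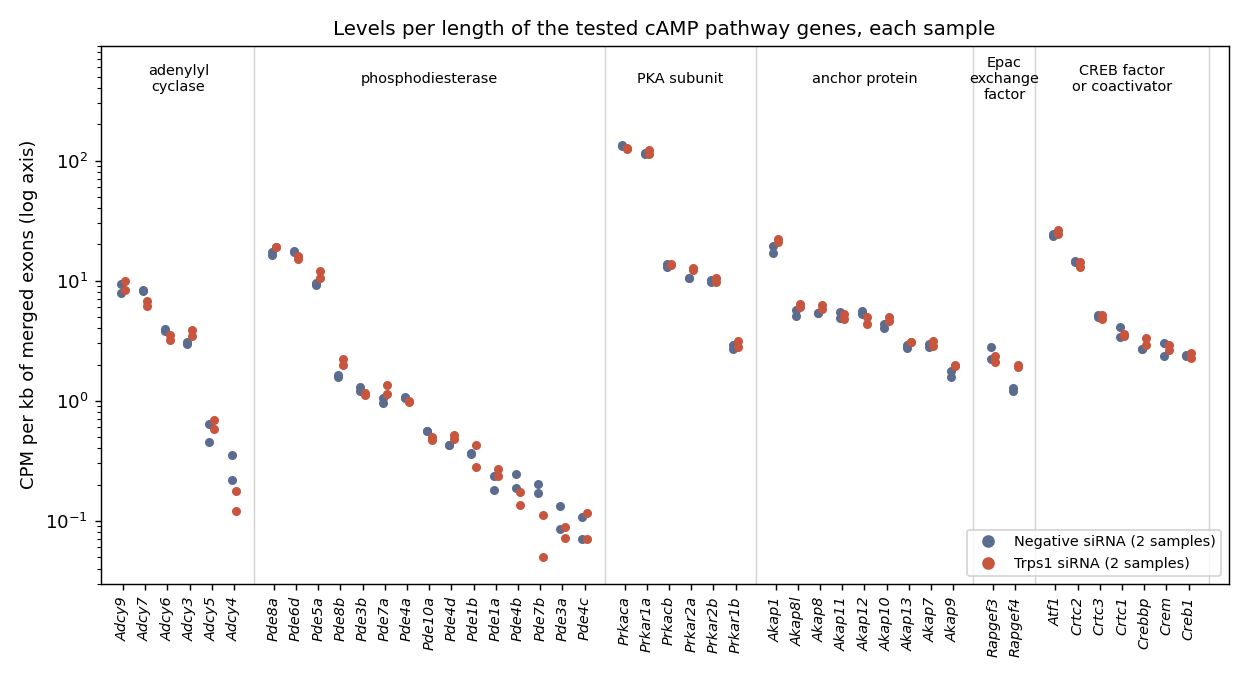
CPM per kb of merged exons on a log axis for the 45 tested genes, ordered by level within each class, with 1 dot per sample. Prkaca and Prkar1a lie above 100 CPM per kb in all samples, while all phosphodiesterase genes but Pde6d, Pde8a and Pde5a lie well below those 3.

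Prkar2a, which encodes the type II alpha regulatory subunit, was the PKA subunit gene that rose (ENSMUSG00000032601, chromosome 9, 108689314 to 108750436, plus strand). It had 66.5 and 67.6 CPM in Negative siRNA samples 1 and 2 and 77.5 and 81.9 CPM in Trps1 siRNA samples 1 and 2. The groups were well apart relative to the spread within each. The log2 fold change was 0.25 ± 0.07 (standard error, edgeR adjusted p = 0.0128), or 1.19-fold. The call was lost in 3 of the 4 fits that left out a sample: the log2 fold change was 0.24 without Negative siRNA sample 1 (edgeR adjusted p = 0.0900), 0.26 without Negative siRNA sample 2 (edgeR adjusted p = 0.0582) and 0.20 without Trps1 siRNA sample 2 (edgeR adjusted p = 0.133). DESeq2 gave an adjusted p of 0.0549.

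The remaining PKA subunit genes did not pass the test, and their errors were small except that of Prkar1b. Prkaca had 337 and 329 CPM in Negative siRNA samples 1 and 2 and 308 and 317 CPM in Trps1 siRNA samples 1 and 2, a log2 fold change of -0.09 ± 0.06 (standard error). Its groups did not overlap. Prkar1a had 495 and 486 CPM against 489 and 531 CPM, a log2 fold change of 0.06 ± 0.06 (standard error). Prkacb, Prkar1b and Prkar2b had log2 fold changes of 0.04 ± 0.06, 0.06 ± 0.14 and 0.01 ± 0.08 (standard errors), each with overlapping groups. Prkar1b shares exon bases with Gm15672 on the same strand, so its level is uncertain. The ratio of regulatory to catalytic per-length levels came to 0.925 and 0.934 in controls, against 1.01 and 1.05 after Trps1 siRNA. The share of Prkar2a in the regulatory sum was 7.57% and 7.80% against 8.75% and 8.66%. Neither the ratio nor the share was tested. Prkaca and Prkar1a, which hold most of the summed levels in the ratio, did not pass the test.

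Because CREB-family factors bind the cAMP response element, TGACGTCA, the promoters of the pathway's own genes were searched for it. Windows from 250 bases before to 50 bases after each start, from RefSeq for GRCm38.p6, were found for 51 of the 64 genes. Prkar1a, the most abundant regulatory subunit gene, was the only one of the 51 with the full 8-base element (1.96%, against 2.54% of 17492 protein-coding genes with a window, on either strand). The shorter element TGACG, which lies within the full one, was present on either strand in 2 of the 6 genes that passed the test, Adcy7 and Prkar2a, and in 16 of the 38 tested genes of the pathway with a window (42.1%), against 34.4% of 10277 tested genes. A gene was counted when any of its windows held the element. The 38 genes had 73 windows and the 10277 genes 13155. The 51 genes had 93 windows and the 17492 genes 21263. More sequence per gene was thus searched in the pathway, and the shares are not like for like. The 3 sites follow with 10 bases on each side, 5′ to 3′ along the gene's strand and with the element in capitals. In Adcy7 and Prkar2a it reads as the reverse complement, CGTCA.
Prkar1a, chr11:109650890-109650917, plus strand: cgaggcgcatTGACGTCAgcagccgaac
Adcy7, chr8:88282954-88282978, plus strand: atcatagagcCGTCAggggggtggg
Prkar2a, chr9:108692129-108692153, plus strand: cggccgcgtgCGTCAcaacccgggc

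The element begins 49 bases before 1 annotated start of Prkar1a and 38 bases after another. In Adcy7 it begins 28 bases, and in Prkar2a 4 bases, before a RefSeq start that lies inside the GENCODE gene, downstream of the gene's first base given here. Trps1 belongs to the GATA-type zinc finger proteins, so the same windows were searched on both strands for the hexamer AGATAA, for the hexamer TGATAA, for the hexamer AGATAG and for the hexamer TGATAG. They were found in 15 of the 51 genes (29.4%), against 29.5% of protein-coding genes, and in 11 of the 38 tested genes of the pathway (28.9%), against 22.1% of tested genes. These shares also count a gene with a match in any window, and the pathway's genes had more windows per gene on average. None of the windows of the 6 genes that passed the test held such a hexamer. Such a match describes the letters in this window only.

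Anchor proteins place PKA in the cell. Of 15 genes 9 were tested, 1 rose and 8 did not pass the test. Akap1, whose protein tethers PKA to the outer mitochondrial membrane, had the highest level of the family per length, at 18.2 CPM per kb with Negative siRNA and 21.5 CPM per kb with Trps1 siRNA. It was also the gene that rose (ENSMUSG00000018428, chromosome 11, 88830792 to 88864586, minus strand). Akap1 had 84.7 and 75.2 CPM in Negative siRNA samples 1 and 2 and 92.3 and 96.7 CPM in Trps1 siRNA samples 1 and 2. The groups did not overlap, but the control samples differed more from each other than the Trps1 siRNA samples did. The log2 fold change was 0.24 ± 0.07 (standard error, edgeR adjusted p = 0.0161). Without Negative siRNA sample 2 it was 0.16 (edgeR adjusted p = 0.339) and without Trps1 siRNA sample 2 it was 0.21 (edgeR adjusted p = 0.163), and DESeq2 gave an adjusted p of 0.0739.

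The other anchor genes had lower control levels per length: Akap12 5.40, Akap8l 5.38, Akap8 5.37, Akap11 5.21, Akap10 4.22, Akap7 2.89, Akap13 2.85 and Akap9 1.68 CPM per kb. Akap9, which encodes a large scaffold of the Golgi and centrosome, had 33.9 and 37.7 CPM in Negative siRNA samples 1 and 2 and 41.8 and 42.4 CPM in Trps1 siRNA samples 1 and 2, a log2 fold change of 0.23 ± 0.08 (standard error, edgeR adjusted p = 0.0697). The nuclear anchors Akap8 and Akap8l had log2 fold changes of 0.17 ± 0.08 and 0.21 ± 0.09, and Akap10 and Akap13 had 0.18 ± 0.09 and 0.12 ± 0.07 (standard errors). In these 5 genes both Trps1 siRNA samples lay above both controls, and none passed the test. Groups did not overlap, in either direction, in 7 of the 9 tested anchor genes (77.8%), against 52.2% of all tested genes. The share was 80% in phosphodiesterases, 66.7% in cyclases, 50% in Epac genes, 33.3% in PKA subunits and 14.3% in CREB-family factors and coactivators. Akap12, the scaffold gravin, went the other way, with 35.9 and 33.8 CPM against 28.1 and 31.9 CPM and a log2 fold change of -0.21 ± 0.09 (standard error, edgeR adjusted p = 0.140). Akap11 and Akap7 had overlapping groups and log2 fold changes of -0.05 and 0.05. Akap9 shares exon bases with Cyp51 on the opposite strand.

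The Epac proteins are cAMP sensors that act apart from PKA, by switching on the small G protein Rap1. Rapgef4, which encodes Epac2, rose 1.58-fold (ENSMUSG00000049044, chromosome 2, 71981240 to 72257474, plus strand). It had 8.46 and 7.97 CPM in Negative siRNA samples 1 and 2 and 13.2 and 12.7 CPM in Trps1 siRNA samples 1 and 2, from 170, 204, 236 and 275 reads. The gap between the groups was many times the spread within either. The log2 fold change was 0.66 ± 0.14 (standard error, edgeR adjusted p = 0.00198). It stayed between 0.61 and 0.70 over the 12 alternatives tried and passed the test in each, with adjusted p-values of up to 0.0184. Rapgef4 shares exon bases with its antisense gene Rapgef4os2, so where counting did not use strand the 2 cannot be told apart.

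Rapgef3, which encodes Epac1, had 17.7 and 14.0 CPM in Negative siRNA samples 1 and 2 and 15.0 and 13.3 CPM in Trps1 siRNA samples 1 and 2. Per length Rapgef3 was at 2.50 and Rapgef4 at 1.23 CPM per kb in controls. The groups of Rapgef3 overlapped, and the log2 fold change of -0.16 ± 0.13 (standard error) did not pass the test. Rapgef4 thus made up 31.2% and 35.1% of the summed per-length level of the 2 Epac genes in controls, against 45.6% and 47.4% after Trps1 siRNA. Rapgef3 also overlaps annotated antisense genes.

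With all 4 samples and no replicate block, none of the 7 genes of CREB-family factors and coactivators passed the test with edgeR, DESeq2 or limma voom, and 1 had an unadjusted edgeR p under 0.05. That gene was Crebbp, which encodes the acetyltransferase that phosphorylated CREB recruits. It had 36.4 and 36.2 CPM in Negative siRNA samples 1 and 2 and 39.4 and 45.0 CPM in Trps1 siRNA samples 1 and 2, a log2 fold change of 0.22 ± 0.08 (standard error, edgeR adjusted p = 0.0904). It was called without Trps1 siRNA sample 1 (0.31, edgeR adjusted p = 0.0303) and not without Trps1 siRNA sample 2 (0.12, edgeR adjusted p = 0.604). Atf1 was the most abundant of the 7 per length, at 24.1 CPM per kb with Negative siRNA, and had 75.4 and 72.0 CPM against 75.1 and 80.0 CPM. Creb1 was at 32.7 and 33.3 CPM against 31.3 and 34.3 CPM, and Crem, whose short forms repress CREB targets, at 13.8 and 17.7 CPM against 15.6 and 17.3 CPM. Crtc1, Crtc2 and Crtc3, the coactivators that enter the nucleus when dephosphorylated, had log2 fold changes of -0.08 ± 0.09, -0.08 ± 0.07 and -0.03 ± 0.08 (standard errors). Control levels per length below that of Atf1 were 14.4 for Crtc2, 5.07 for Crtc3, 3.75 for Crtc1, 2.68 for Crebbp, 2.67 for Crem and 2.40 CPM per kb for Creb1. The groups of Atf1, Creb1, Crem and the 3 Crtc genes overlapped.

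**Figure D3:**
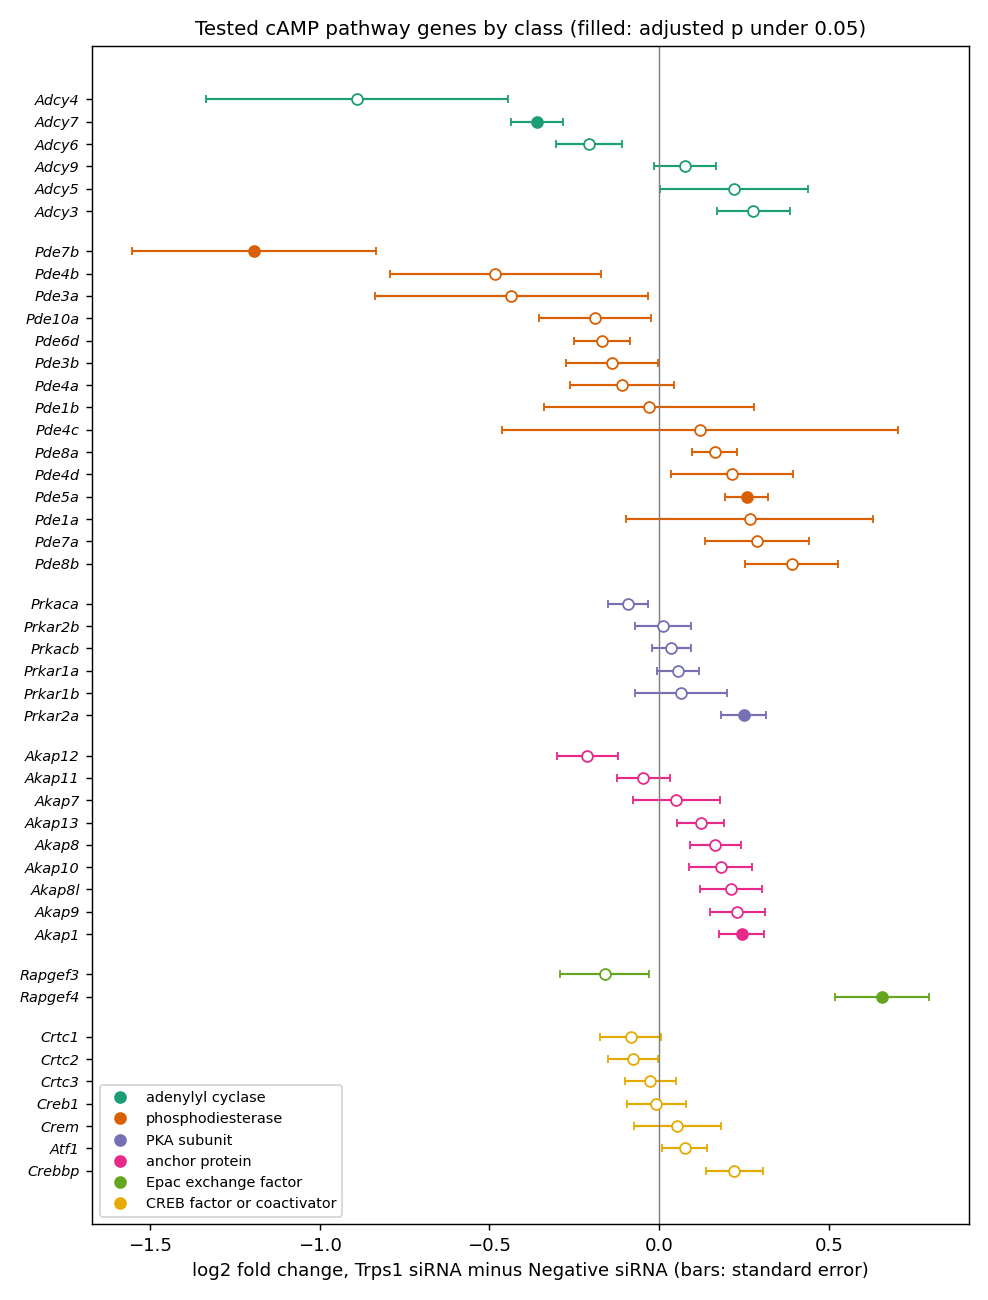
Log2 fold change (horizontal axis, Trps1 siRNA minus Negative siRNA) with its standard error for the 45 tested genes, coloured by class, with filled points for the 6 that passed the test. Values ran from -1.19 for Pde7b to 0.66 for Rapgef4, and the bars were widest for genes with few reads such as Pde4c and Adcy4.

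The other 19 genes had too few reads to be tested, with 0 to 16 reads in a sample. They were the cyclases Adcy1, Adcy2, Adcy8 and Adcy10, the anchors Akap2, Akap3, Akap4, Akap5, Akap6 and Akap14, and the phosphodiesterases Pde1c, Pde2a, Pde6a, Pde6b, Pde6c, Pde6g, Pde6h, Pde9a and Pde11a. The Pde6 genes with catalytic or inhibitory roles are known from photoreceptors, and Akap3 and Akap4 from the sperm tail. Akap4, Pde2a, Pde6b and Pde6c were at 0 reads in all 4 samples, and 3 reads would have been 0.117 to 0.168 CPM, a limit that covers counting error only. Pde2a shares exon bases on the same strand with Gm45837, and Akap2 with Pakap. How reads falling in 2 genes were counted is not stated, so both levels are uncertain.

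Around these genes, a list of 33 Gs-coupled receptors and G protein genes held 20 tested genes. Of these 1 rose and 1 fell, with a median log2 fold change of -0.12. That is 10% called, against 11.2% of all tested genes. Lhcgr, the receptor for luteinising hormone, rose 2.18-fold, with 40.5 and 34.7 CPM in Negative siRNA samples 1 and 2 and 80.0 and 83.4 CPM in Trps1 siRNA samples 1 and 2 (edgeR adjusted p = 1.70e-10). Gnai1, which encodes an inhibitory G protein subunit that lowers cyclase activity, fell to 77.9% of control, with 81.6 and 91.6 CPM against 62.7 and 72.1 CPM (log2 fold change -0.36 ± 0.07, standard error, edgeR adjusted p = 0.00174). Its more abundant relatives Gnai2 and Gnai3 had log2 fold changes of -0.01 and 0.02 and did not pass the test. Gnas, which encodes the Gs subunit itself, was at 22.1 to 26.2 CPM with a log2 fold change of 0.12 ± 0.10 (standard error). It shares exon bases with genes on the opposite strand, so its level is uncertain. Arrb2 did not pass the test, but was called lower with the replicate number as a block (-0.23, edgeR adjusted p = 0.0227). Without Trps1 siRNA sample 1 the log2 fold change of Arrb2 was -0.47. Vipr1 had 19 and 9 reads in the controls and 1 and 2 after Trps1 siRNA, too few to be tested. With no low-count filter Vipr1 was called lower (-2.98, edgeR adjusted p = 0.0203).

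Of 9 genes for PKA inhibitors and related kinases 8 were tested, 2 fell and none rose, with a median log2 fold change of -0.09. The share called was 25% in this short list, against 11.2% of all tested genes. Pkib and Pkig, which encode small inhibitors that bind the free catalytic subunit, were those that fell. Pkig had 31.9 and 30.7 CPM in Negative siRNA samples 1 and 2 and 26.6 and 24.3 CPM in Trps1 siRNA samples 1 and 2, a log2 fold change of -0.30 ± 0.09 (standard error, edgeR adjusted p = 0.0339). Pkib had 5.32 and 5.43 CPM against 3.47 and 3.45 CPM, a log2 fold change of -0.64 ± 0.20 (standard error, edgeR adjusted p = 0.0393). Neither call held with DESeq2, which gave adjusted p-values of 0.134 for Pkig and 0.182 for Pkib. Pkib kept no call in the fits that left out a sample (edgeR adjusted p = 0.0962 to 0.174), and Pkig kept its call only without Trps1 siRNA sample 1 (edgeR adjusted p = 0.0262). Pkia, the most abundant inhibitor gene per length, at 16.6 CPM per kb with Negative siRNA, had a log2 fold change of -0.04 ± 0.07 (standard error).

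Of 17 genes for other cAMP sensors, exporters and Rap proteins, 10 were tested, 1 rose and 1 fell, with a median of -0.05. The share called was 20% here, against 11.2% of all tested genes. Rap2a, a small G protein related to Rap1, had 52.2 and 46.1 CPM in Negative siRNA samples 1 and 2 and 37.2 and 38.5 CPM in Trps1 siRNA samples 1 and 2, a log2 fold change of -0.37 ± 0.08 (standard error, edgeR adjusted p = 0.00270). Without Negative siRNA sample 1 it was -0.29 and the call was lost (edgeR adjusted p = 0.0706). Rapgef2, a Rap exchange factor, had 31.0 and 29.0 CPM against 33.0 and 41.2 CPM, a log2 fold change of 0.31 ± 0.10 (standard error, edgeR adjusted p = 0.0373). That rise rested on Trps1 siRNA sample 2, without which the log2 fold change was 0.13 (edgeR adjusted p = 0.580), and it was also lost without Negative siRNA sample 2 (0.26, edgeR adjusted p = 0.169).

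**Figure D4:**
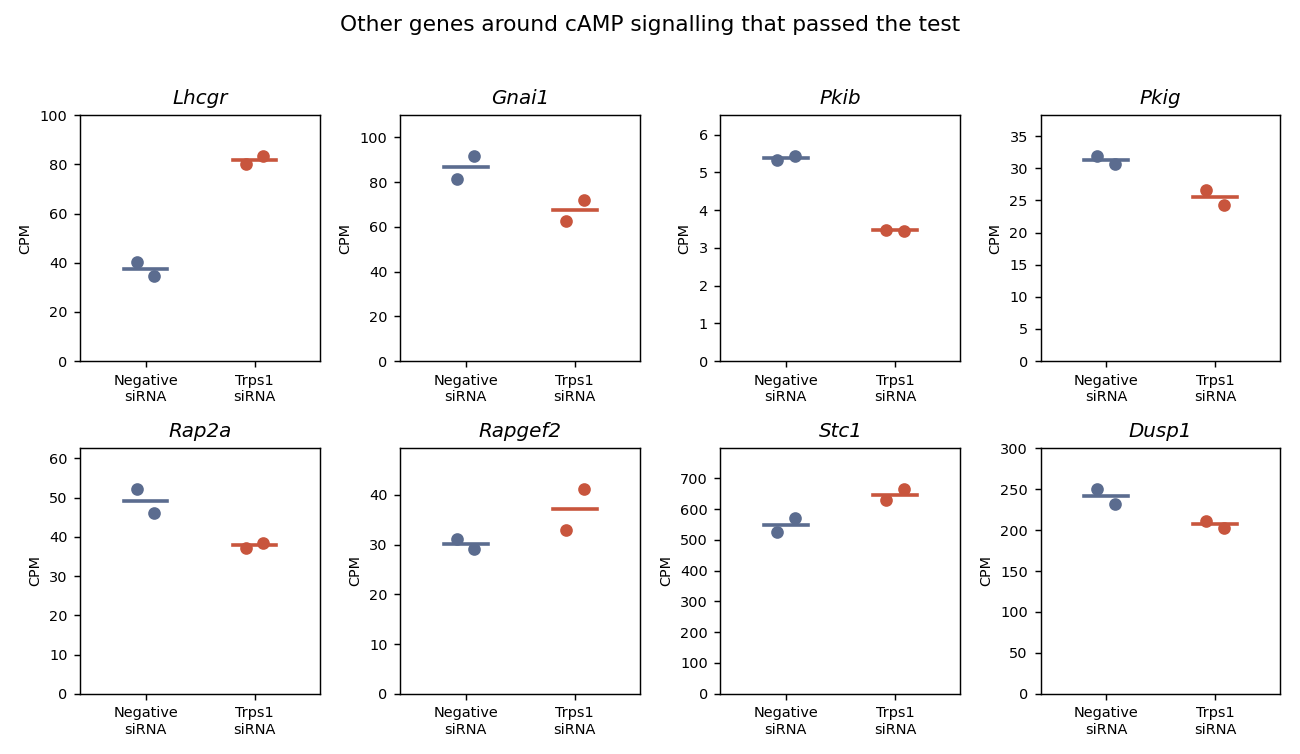
CPM (vertical axes, from 0) of genes around the cAMP pathway that passed the test, other than steroid synthesis genes, with 1 dot per sample and a line at the mean of 2 samples. Lhcgr, Rapgef2 and Stc1 were higher, and Gnai1, Pkib, Pkig, Rap2a and Dusp1 lower, in both Trps1 siRNA samples than in both controls.

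Downstream, 2 lists hold general CREB target genes and cAMP-regulated steroidogenic genes, and cAMP need not raise each of them. Of 29 general CREB target genes 24 were tested, of which 1 rose and 1 fell, with a median log2 fold change of 0.003. That is 8.33% called, against 11.2% of all tested genes. Stc1, a secreted glycoprotein, had 526 and 572 CPM in Negative siRNA samples 1 and 2 and 628 and 666 CPM in Trps1 siRNA samples 1 and 2 (log2 fold change 0.24 ± 0.06, standard error, edgeR adjusted p = 0.0130). Dusp1, a phosphatase of MAP kinases, had 250 and 232 CPM against 211 and 202 CPM (log2 fold change -0.22 ± 0.06, standard error, edgeR adjusted p = 0.0163). Both calls were lost without Negative siRNA sample 1 and without Trps1 siRNA sample 2 (edgeR adjusted p = 0.225 and 0.104 for Stc1, 0.249 and 0.125 for Dusp1), and Dusp1 shares exon bases with Ergic1 on the opposite strand. The Fos, Jun and Nr4a genes of this list and Egr1, immediate early genes that cAMP induces rapidly, had mixed signs, and none passed the test. Log2 fold changes were -0.25 ± 0.12 for Fos, -0.27 ± 0.11 for Nr4a1 and -0.26 ± 0.10 for Egr1 (standard errors). They were 0.46 ± 0.20 for Fosb, 0.33 ± 0.35 for Nr4a3, -0.02 ± 0.07 for Junb and -0.001 ± 0.51 for Nr4a2 (standard errors). Egr1 was called lower without Negative siRNA sample 1 (edgeR adjusted p = 0.0417) and without Trps1 siRNA sample 2 (log2 fold change -0.47, edgeR adjusted p = 0.000451).

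Of 16 steroidogenic genes under cAMP control 15 were tested, 10 rose and 1 fell, with a median of 0.43. The share called was 73.3%, against 11.2% of all tested genes. This list, like the others, was chosen with earlier results of these data known, so the share is not independent evidence. The difference between the 2 lists was not tested, and Lhcgr is counted here as well. The log2 fold changes of the others that rose were 2.70 for Cyp17a1, 1.42 for Hsd3b1, 0.67 for Fdxr, 0.54 for Hsd17b3, 0.49 for Cyp11a1, 0.43 for Hsd3b6 and 0.42 for Nr5a1, while Tspo, which encodes a mitochondrial outer membrane protein, fell by 0.23 on the log2 scale. The call of Tspo was lost without Negative siRNA sample 1 (edgeR adjusted p = 0.0984). Beyond the enzymes of steroid synthesis, Mrap, an accessory protein of the melanocortin receptor, rose from 145 and 165 CPM to 227 and 242 CPM (log2 fold change 0.60 ± 0.06, standard error, edgeR adjusted p = 6.45e-07). Scarb1, the receptor that takes up cholesterol from lipoproteins, rose from 467 and 477 CPM to 597 and 596 CPM (log2 fold change 0.34 ± 0.06, standard error, edgeR adjusted p = 0.000286). Star, an acute target of cAMP in these cells, had 330 and 302 CPM in Negative siRNA samples 1 and 2 and 287 and 307 CPM in Trps1 siRNA samples 1 and 2, with overlapping groups and a log2 fold change of -0.09.

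The authors' deposited table of 780 genes lists 2 of the 64 genes of the pathway. In the authors' deposited table Rapgef4 has a log2 fold change of 0.65 with an adjusted p of 0.0119, and Adcy7 one of -0.36 with an adjusted p of 0.00734. With DESeq2, run here as an alternative, 3 of the 45 tested genes were called, beside 991 of the 14701 genes in the whole table. The 3 were Rapgef4, Adcy7 and Pde5a, the last with a DESeq2 adjusted p of 0.0423.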

How the data were processed

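RNA sequencing counts from 4 samples were used. The authors' deposited table holds read counts per gene, whole numbers whose totals differ between samples. HISAT2, featureCounts and GRCm38 (mm10) are named, without versions, in the submitters' processing notes. Whether counting used strand, and how it treated reads in several genes, is not given in those notes. A second table from the authors, of 780 genes, holds mean signal per group, log2 fold changes, p-values and adjusted p-values, by a test that is not given.

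Samples were grouped by their titles. Symbols, positions and exon lengths came from GENCODE M21 (GRCm38). The counts were fitted with edgeR 4.0.16 (R 4.3.3): filterByExpr with a minimum count of 10, TMM, glmQLFit with robust=TRUE and glmQLFTest, group only, 2 residual degrees of freedom, Benjamini-Hochberg over 14701 genes, threshold 0.05. CPM used TMM-scaled library sizes, and the standard error is the ratio of the log2 fold change to the root of F. The fit was tested on simulated data. It called 60.4% and 52.1% of genes given a log2 fold change of -0.5 and 0.5. At -1 and 1 it called 78.7% and 90%. A gene that did not pass the test may therefore still have changed. Replicates differed by more than sampling noise (mean chi-square per gene 7.58 and 4.56).

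Alternatives were RLE, library totals alone, no filter, DESeq2 1.42.0, limma 3.58.1 voom, a filter at a mean of 5 CPM, the non-robust fit, a block for the replicate number, and each sample left out. The genes and lists were chosen with earlier results of these data known. All tested genes of the pathway were named, those called with every sample's value, and genes of other lists where called. Gnai2, Gnai3, Gnas, Arrb2, Vipr1, Pkia, the Fos, Jun and Nr4a genes, Egr1 and Star were chosen after their values were seen, as were the GATA hexamers. Promoter windows are from RefSeq (GRCm38.p6).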

Additional observations from a re-analysis of the deposited data

How the results depend on the processing

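The number of genes called in the whole table was 1652, 991 with DESeq2, and 871 to 1675 with a sample left out, lowest without Trps1 siRNA sample 2. For genes of the pathway called higher (4), DESeq2 called 2 and the replicate block 7, and 1 to 5 were called with a sample left out. For those called lower (2), a mean of at least 5 CPM left 1, which removed Pde7b from the test, DESeq2 called 1, and leaving out a sample 1 to 2. Rapgef4 was called in all 12 alternatives, Adcy7 in 11, Pde5a in 10, Akap1 in 9, Prkar2a in 8 and Pde7b in 8 of the 10 that gave it an adjusted p, and their directions were the same in each. Of the PKA inhibitors and related kinases (2), DESeq2 called 0, limma voom 1 and library totals alone 3, against 0 to 1 with a sample left out, where the 1 was Pkig without Trps1 siRNA sample 1 and Prkx, called higher, without Negative siRNA sample 2. Of other sensors, exporters and Rap proteins (2), DESeq2, limma voom and the fit without robust estimation called 1 each, and leaving out a sample gave 1 to 2. CREB targets (2) gave 1 to 2 with a sample left out, and where 1 was left it was Egr1, not Stc1 or Dusp1.

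With the replicate number as a block, 2285 genes were called in all, and Akap9, Crebbp and Pde8b joined those called higher. No source says that a number marks a shared culture, and deviations of same-numbered samples from their group means correlated at 0.070 across 10763 genes, so the pairing was not used. Signs turned for some genes that did not pass the test: Creb1 was 0.0055 with library totals alone and -0.01 in the report's fit. With a sample left out, log2 fold changes ranged over Creb1 -0.082 to 0.055, Crem -0.111 to 0.254, Crtc1 -0.231 to 0.067, Crtc3 -0.079 to 0.019, Rapgef3 -0.329 to 0.011, Prkar1a -0.0084 to 0.114, Prkar1b -0.0089 to 0.137, Prkar2b -0.050 to 0.070, Adcy5 -0.029 to 0.482, Adcy9 -0.061 to 0.202, Akap11 -0.129 to 0.040, Akap7 -0.020 to 0.111, Pde1b -0.382 to 0.223 and Pde4c -0.309 to 0.423. A fit with 1 sample in an arm assumes that it varies like the other group.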
